A study of Mus musculus with 12 samples.

Results

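The difference between p47phox null and wild type abdominal fat that was shared by a casein diet and a high fat diet was measured on 12 Affymetrix arrays of female mice. The rule took all 12 arrays of the series, averaged the null minus wild type difference over the 2 diets, and then looked for genes that differed alike on both diets with no overlap between the 6 null and the 6 wild type arrays. Each array held RNA from a pool of fat pads. Each genotype was fed either diet, which gave 4 groups of 3 pools. The genetic background is given as C57BL/6 for all pools, and the genotype of the P47KO pools as p47phox null; how the allele was made and whether littermates were used is not given in the sources used here. Feeding began on postnatal day 28 and lasted 13 weeks. The labels give neither the number of animals in a pool nor a batch or date, so the p-values measure the spread between pools, and the number of arrays limits the precision.

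The protein p47phox, encoded by Ncf1, is the cytosolic organiser of the phagocyte NADPH oxidase. On activation it moves to the membrane and brings its cytosolic partner p67phox, with Rac, to the catalytic subunit encoded by Cybb, which then passes electrons to oxygen and makes superoxide. In fat pads the enzyme is best known from macrophages and neutrophils, while adipocytes also express the related oxidase Nox4. Loss of p47phox silences the phagocyte enzyme without removing its other subunits.

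Values are on a log2 scale and were centred by the authors so that each probe set has a median of 0 over the 12 arrays. A value of a gene therefore says how far a pool lies above or below that gene's own median, and no gene can be said to be abundant or rare. Probe sets of 1 gene were averaged, which gave 18195 genes, and a difference is always null minus wild type. Genes were tested with limma in 1 fit to the 4 group means, errors after ± are standard errors of that fit, and an adjusted p under 0.05 over all 18195 genes counts as called. A gene is described as free of overlap when all 6 null pools lie above, or all 6 below, the 6 wild type pools. It is described as alike on the diets when, in addition, the smaller of its casein and high fat differences is at least 0.5 of the larger.

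The pools differed in markers of other tissues, and in reproductive tract genes wild type casein pool 1 lay with the null pools. The median of 25 genes of ovary, oviduct and uterus lay between -0.96 and -0.56 in 5 wild type pools, but at 0.37 in wild type casein pool 1, inside the range of the null pools, which ran from -0.05 to 0.81. Inha, the inhibin alpha subunit of ovarian granulosa cells, lay between -5.78 and -5.04 in those 5 wild type pools, at 0.73 in wild type casein pool 1 and between -0.15 and 1.89 in the null pools. Over all genes, wild type casein pool 1 had a mean correlation of 0.25 with the null pools and of -0.18 with the other wild type pools. Null casein pool 1 also did not resemble its genotype, with -0.14 for the other null pools and 0.04 for the wild type pools. For null high fat pool 1 these values were 0.10 and 0. Liver genes stood apart in wild type casein pool 3 (list median 4.50), and skeletal muscle genes in wild type high fat pool 2 (4.58) and null high fat pool 1 (3.74). These are the 3 pools that stand apart and are left out together below. The muscle median was also high in wild type casein pool 1 (2.77) and null casein pool 1 (1.87), against -1.79 to 0.63 in the remaining pools. Hsd3b1, an enzyme of steroid synthesis, was high in wild type casein pool 3 as well: it was 1.14 there and -0.18 in pool 1, against -8.86 to -6.16 in the other 4 wild type pools and -0.05 to 0.78 in the null pools. In bulk RNA, fewer cells of a type and less RNA per cell cannot be told apart.

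**Figure D1:**
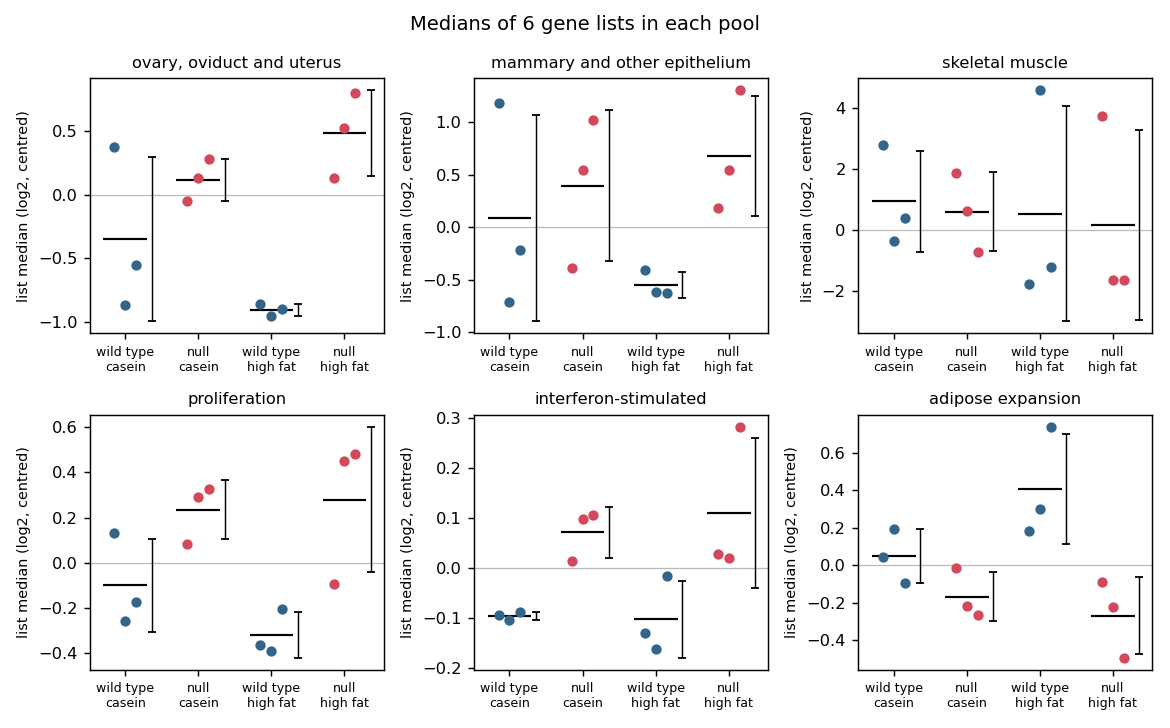
Median of 6 gene lists in each pool (y axis, log2 value centred on the 12 arrays) by group (x axis); points are pools, horizontal lines group means and bars 1 SD over 3 pools. Wild type casein pool 1, the leftmost point, lies at 0.37 in the reproductive tract list, among the null pools, whereas the interferon-stimulated list keeps all 6 wild type pools (at most -0.01) below all 6 null pools (at least 0.01).

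Averaged over the diets, 1368 of 18195 genes were called (7.52%), 745 higher in null pools (4.09%) and 623 lower (3.42%), against a median difference of -0.02 over all genes. Of the 159 called genes that differed more than 2-fold, 140 rose and 19 fell; after a further quantile normalization of the arrays these counts were 76 and 38. Free of overlap were 559 genes (3.07%), of which 231 were higher (1.27%) and 328 lower (1.8%) in null pools. Alike on the diets were 442 of them (2.43%), 180 higher (0.989%) and 262 lower (1.44%), with a median size of 0.35 on the log2 scale. Of the 442, 182 have 1 probe set and 260 have more. Among these 260, all probe sets were free of overlap in the same direction for 14 genes, and no single probe set was for 87. The limma test called 351 of the 442; since the same contrast chose these genes, their calls and adjusted p-values describe them and are no separate evidence.

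The 2 diets compare different pools, so each can be set beside the other. On casein alone no gene was called by limma, although 1478 had an unadjusted p under 0.05, and on the high fat diet alone 1077 were called (5.92%). Of the 584 genes called higher on the high fat diet, 559 were also higher on casein (95.7%), with a median difference of 0.76 on high fat feed and 0.30 on casein. Of the 493 called lower, 452 were also lower on casein (91.7%), with medians of -0.55 and -0.20. Over all genes 68% had the same direction on both diets. Without wild type casein pool 1 the shares were 96.9%, 93.5% and 69.9%.

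The genotype difference was usually greater on the high fat diet, in 447 of the 559 genes without overlap. That inequality was not called for any single gene: the interaction, the high fat difference minus the casein difference, passed the threshold of limma for 0 genes, with 1113 at an unadjusted p under 0.05. Without wild type casein pool 2 it was called for 10 genes, and without wild type casein pool 3 for 1. Among the 117 genes left out as unlike on the diets, the high fat difference was the greater in 103 and the casein difference in 14. At the edge of the rule, Srms, Npat and Hoxc13 were free of overlap by gaps of 2.9e-06, 5e-05 and 0.00029 on the log2 scale, whereas the gaps of Slc6a9 (-0.00034), Eif2s3x (-0.00055) and Retnla (-0.00057) were negative, so these overlapped. Tgfb1i1 and Zbtb7a, with ratios of 0.503 and 0.502 between the diets, counted as alike, whereas the protease-like gene Prss35 (averaged difference 3.64, ratio 0.498) did not.

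**Figure D2:**
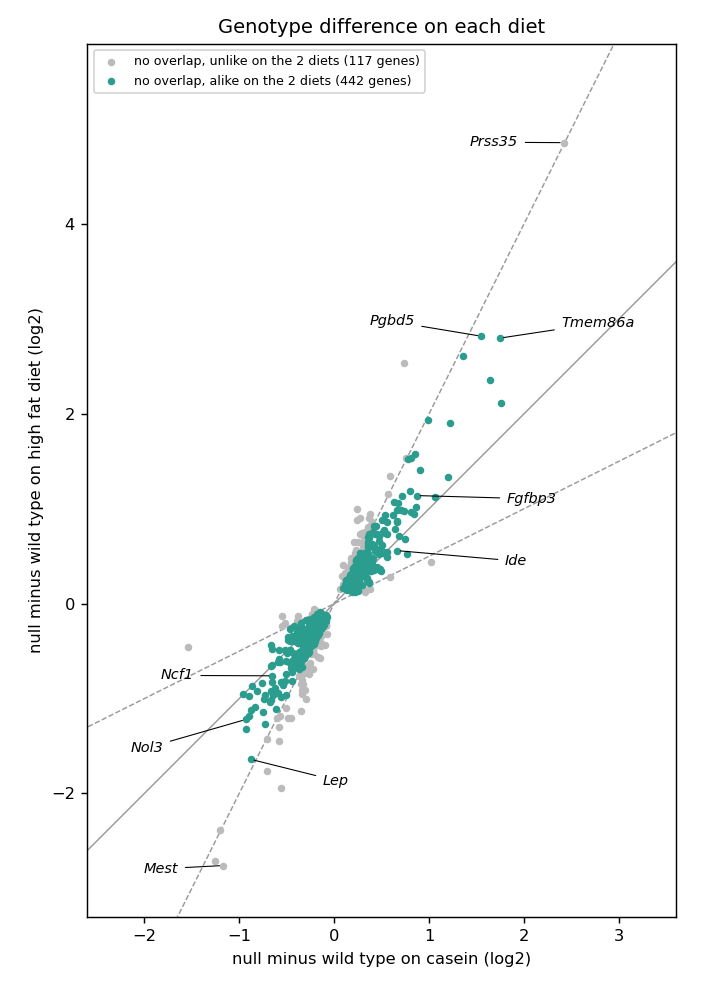
Null minus wild type difference on casein (x axis, log2) against that on the high fat diet (y axis, log2) for the 559 genes without overlap; green points are the 442 genes alike on the diets and grey points the other 117. The solid line marks equal differences and the dashed lines a ratio of 0.5; more points lie toward the high fat axis, as 447 genes had the greater difference there.

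Ncf1 itself, the gene that the null genotype disrupts, fell. In wild type pools it lay at 0.07, 0.37 and 0.85 on casein, and the high fat pools lay at 0.37, 0.50 and 0.72. In null pools it lay at -0.19, -0.23 and -0.23 on casein, and the high fat pools lay at -0.29, -0.21 and -0.19. All null pools were thus below all wild type pools, and they were close together while the wild type pools were spread. The averaged difference was -0.71 ± 0.12 (adjusted p = 0.0140), with -0.65 for casein and -0.76 for high fat, a 1.63-fold lower value. Without any 1 pool the adjusted p stayed between 0.00188 and 0.0449.

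The 3 probe sets of Ncf1 did not respond alike. The difference was -1.40 for one and -0.67 for another, both free of overlap, but -0.04 for the remaining one, whose null and wild type pools overlapped (adjusted p = 0.764). Which part of the transcript each probe set reads, and whether it lies in the disrupted part, is not given in the sources used here. The lowest wild type value, 0.07, was that of wild type casein pool 1; it still lay above every null pool.

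Of the 10 measured genes of the oxidase system limma called only Ncf1, against 7.52% of all genes, and 3 of the 10, Ncf1 included, had an unadjusted p under 0.05, as had 25.6% of all genes. Cybb, the catalytic subunit, differed by -0.37 ± 0.13 (adjusted p = 0.106); its wild type pools ran from -0.24 to 0.65 and its null pools from -0.31 to -0.03, so the groups overlapped. Its membrane partner Cyba (0.18), the cytosolic regulator Ncf4 (-0.22), the GTPases Rac1 (-0.09) and Rac2 (-0.20) and the chaperone of the membrane subunits Cybc1 (-0.03) were not called. Nor were the related oxidases Nox4 (0.05) and Duox1 (-0.31, adjusted p = 0.116) or the organiser Noxo1 (0.16). In the fits without 1 pool, Cybb and Duox1 passed only without wild type casein pool 1, with adjusted p-values of 0.0335 and 0.0229. With array weights, which called 4009 genes in all, 3 of the 87 genes followed across settings gained a call. Each of the 3 was an oxidase gene or Mrc1, the mannose receptor of macrophages.

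The genes around Ncf1 on chromosome 5 had a median difference of -0.04. An unadjusted p under 0.05 was found for 16 of the 32 measured, against 25.6% of all genes. Limma called 3 of the 32 measured, near the share over all genes (7.52%): Ncf1, the claudin Cldn4 (0.62, adjusted p = 0.0450) and Gtf2ird2, a transcription factor of the GTF2I family (0.29, adjusted p = 0.0467). Its relatives in the same segment, Gtf2i (0.07) and Gtf2ird1 (-0.15), were not called. The call of Cldn4 held only without wild type casein pool 1, null casein pool 1 or null high fat pool 1, and that of Gtf2ird2 only without null casein pool 1 or null high fat pool 1; without any other pool their adjusted p-values lay between 0.0516 and 0.114.

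**Figure D3:**
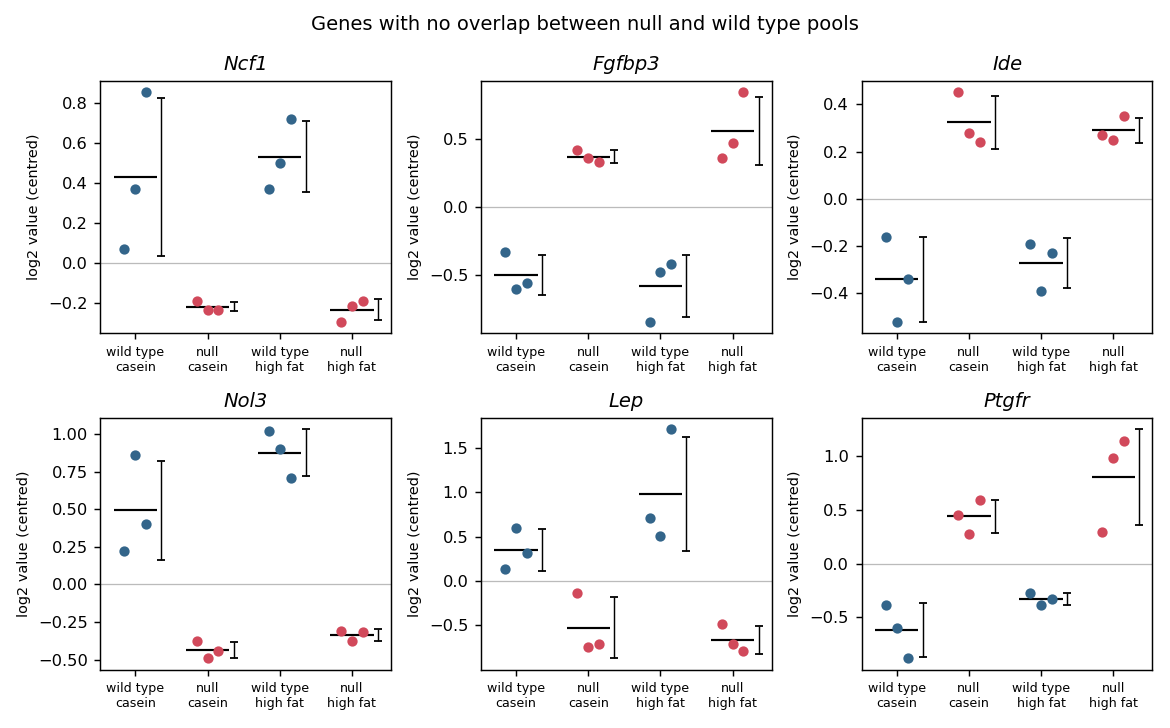
Log2 value of 6 genes in each pool (y axis, centred on the 12 arrays) by group (x axis); points are pools, horizontal lines group means and bars 1 SD over 3 pools. In each panel the 6 null pools lie on one side of the 6 wild type pools, for example at most -0.19 against at least 0.07 for Ncf1 and at least 0.33 against at most -0.33 for Fgfbp3.

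The steadiest rises were small to moderate and left a clear gap between the genotypes. Fgfbp3, which binds fibroblast growth factors and releases them from the matrix, rose by 1.0 ± 0.10, a 2-fold change (adjusted p = 0.00331). It lay at -0.33, -0.60 and -0.56 in the casein pools of wild type mice and at -0.84, -0.48 and -0.42 in their high fat pools. The null pools lay at 0.42, 0.36 and 0.33 on casein and at 0.36, 0.47 and 0.84 on high fat feed. The lowest null pool was 0.66 above the highest wild type pool.

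Ide, the protease that degrades insulin, rose by 0.61 ± 0.07 (adjusted p = 0.00548). Its wild type pools ran from -0.52 to -0.16 with a median of -0.28, and its null pools from 0.24 to 0.45 with a median of 0.28. Of its 5 probe sets 4 were free of overlap, with differences of 0.44 to 0.92, and the fifth overlapped, with 0.14. Hirip3, a histone-binding partner of the chaperone HIRA, rose by 0.51 ± 0.05 (adjusted p = 0.00331), from wild type pools between -0.35 and -0.16 to null pools between 0.16 and 0.36. Mgst2, a microsomal glutathione transferase that also makes leukotriene C4, rose by 0.53 ± 0.06 (adjusted p = 0.00508), and here wild type casein pool 1 was among the lowest, at -0.41. These 4 had the smallest p among the rises alike on the diets, and each was called without any 1 pool, at an adjusted p of at most 0.0239.

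Fgfbp3 and Ide lie near each other on chromosome 19, with 3 measured genes between them. None of those 3 rose: Btaf1, a regulator of the TATA-binding protein, differed by -0.05, the ubiquitin ligase Marchf5 by -0.25 (adjusted p = 0.0938), and the RNA-binding regulator Cpeb3 fell by 0.35 (adjusted p = 0.0347). Beyond Ide, the exocyst subunit Exoc6 fell by 0.39 (adjusted p = 0.0312) with no overlap, and the mitotic motor Kif11 differed by 0.36 (adjusted p = 0.111). Each of the 4 probe sets of Exoc6 overlapped on its own. Over the 14 measured genes of the segment the median was -0.09. Limma called 2 of them higher and 2 lower, where the shares over all genes were 4.09% and 3.42%. An unadjusted p under 0.05 was found for 7 of the 14, against 25.6% of all genes. The call of Cpeb3 held only without wild type casein pool 1, null casein pool 1 or null high fat pool 1, with adjusted p-values of 0.0514 to 0.0825 otherwise. Exoc6 lost its call without wild type casein pool 2, null casein pools 2 and 3, wild type high fat pools 2 and 3 or null high fat pools 2 and 3 (0.0607 to 0.0762).

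The 12 greatest rises alike on the diets ran from 1.09 to 2.28. Tmem86a, which breaks down lysoplasmalogens, rose by 2.28 ± 0.36 (4.84-fold, adjusted p = 0.0131), and Pgbd5, a gene derived from a piggyBac transposase, by 2.19 ± 0.26 (4.55-fold, adjusted p = 0.00574). In Tmem86a the wild type pools 2 and 3 on casein lay at -2.16 and -2.06 and those on the high fat diet at -2.34, -2.26 and -1.59, but wild type casein pool 1 lay at -0.03, just under the lowest null pool at 0.03. Pgbd5 showed the same order, with wild type casein pool 1 at -0.22 and the other wild type pools between -2.10 and -1.47.

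Sfrp4, a secreted Wnt antagonist, rose by 2.0, the protease inhibitor of the cystatin family Cst12 by 1.98, the matrix metalloproteinase Mmp11 by 1.94 and the phosphodiesterase of the sphingomyelinase family Smpdl3b by 1.57. Each again had wild type casein pool 1 as its highest wild type pool, between -0.20 and -0.01. The other 6 were Rpp25, an RNase P subunit (1.27), Spag1, needed to assemble the dynein arms of cilia (1.22), the Ras-like Rasl10a (1.18), Cited2, which competes with hypoxia-inducible factors for their coactivator (1.16), the cyclic GMP phosphodiesterase Pde5a (1.15) and Ptgfr, the receptor for prostaglandin F2α (1.09). Ptgfr was the exception among the 12: its highest wild type pool was on the high fat diet, at -0.27, wild type casein pool 1 lay at -0.38, and the null pools ran from 0.28 to 1.14. Its difference was 1.06 on casein and 1.13 on high fat feed.

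Calls of 9 of these 12 held without any 1 pool. Sfrp4 lost its call without null casein pool 2 (adjusted p = 0.0540) or null high fat pool 2 (0.0524), and Spag1 without wild type casein pool 2 (0.0508) or null casein pool 2 (0.0514). Rpp25 kept its call only without wild type casein pool 1, null casein pool 1, null high fat pool 1 or null high fat pool 3; without any of the other 8 its adjusted p lay between 0.0554 and 0.0752.

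**Figure D4:**
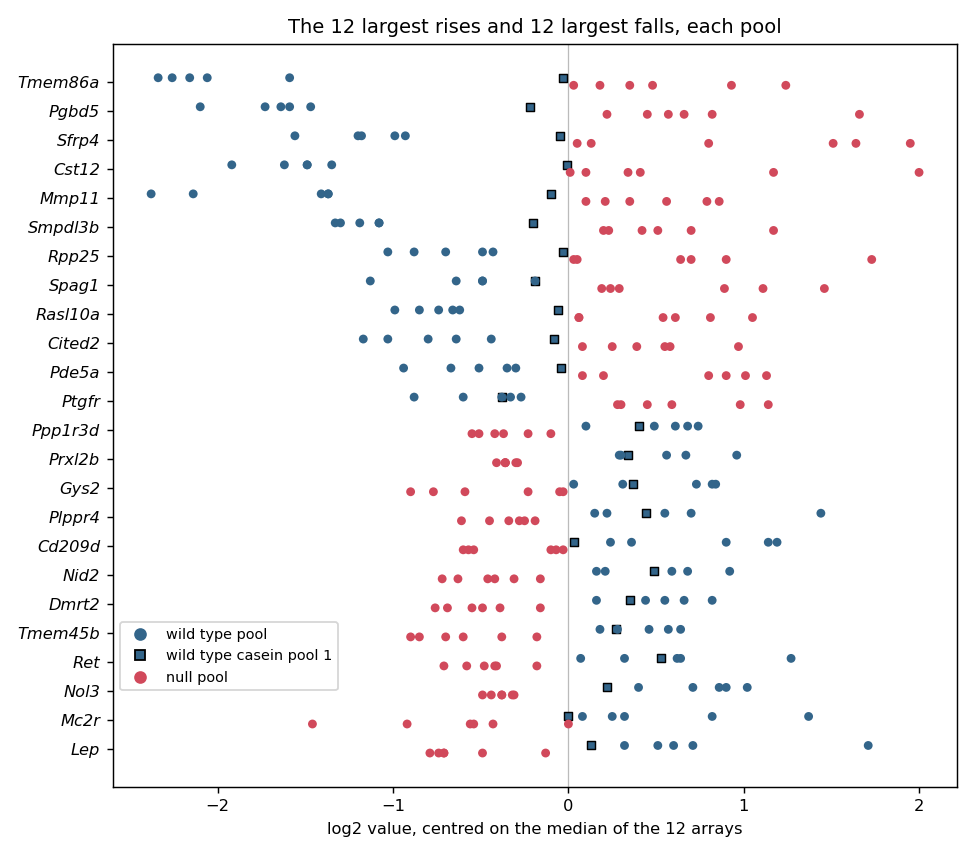
Log2 value of each pool (x axis, centred on the 12 arrays) for the 12 greatest rises and 12 greatest falls alike on the diets (y axis); blue marks wild type pools, the outlined square being wild type casein pool 1, and red marks null pools. Wild type casein pool 1 is the wild type pool nearest the null pools in 11 of the 12 rises and in 4 of the 12 falls (Lep, Mc2r, Nol3 and Cd209d).

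Across all 442 genes alike on the diets, wild type casein pool 1 was the wild type pool nearest the null pools for 226, namely 101 of 180 rises and 125 of 262 falls. The next was wild type casein pool 3 with 79, most of them falls (63). Among the null pools, the nearest to wild type was null casein pool 1 for 133 genes and null high fat pool 1 for 117. When 3 list medians, those of reproductive tract, muscle and liver, entered the fit as covariates, all 442 genes kept their direction, their median size was 0.20 in place of 0.35, and none was called. The reproductive tract median was itself lower in 5 wild type pools (-0.96 to -0.56) than in all null pools (-0.05 to 0.81). That covariate therefore runs partly with genotype, which by itself can shrink differences and remove calls. The fit with covariates has 5 residual degrees of freedom, and called 6 genes in all. Under it Tmem86a differed by 0.63, Pgbd5 by 1.01, Fgfbp3 by 0.74, Ide by 0.41, Mgst2 by 0.66 and Ncf1 by -0.51 (adjusted p = 0.0965 for Mgst2 and 0.446 for Ncf1).

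The 12 greatest falls alike on the diets ran from -1.26 to -0.87, and 9 of them were called without any 1 pool. Their size beside that of the rises depended on the scaling: after a further quantile normalization Tmem86a differed by 1.70 and Pgbd5 by 1.80, and Lep by -1.80 and Nol3 by -1.59. Lep, which encodes the adipocyte hormone leptin, fell by 1.26 ± 0.20 (2.39-fold lower, adjusted p = 0.0131). Its wild type pools lay at 0.13, 0.60 and 0.32 on casein and at 0.71, 0.51 and 1.71 on high fat feed. Its null pools lay at -0.13, -0.74 and -0.71 on casein and at -0.49, -0.71 and -0.79 on high fat feed. The wild type high fat pool 3 was far above the rest, and the null casein pool 1 was the null pool closest to wild type.

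Nol3, a repressor of caspase-dependent cell death, fell by 1.07 ± 0.10 (adjusted p = 0.00331). Its 6 null pools lay within -0.49 and -0.31, while its wild type pools ran from 0.22 to 1.02. Of the 22 measured genes of cell death limma called 2, near the 7.52% of all genes: Nol3, lower, and the executioner caspase Casp6, higher (0.33, adjusted p = 0.0303). The list's median was -0.07, and 8 of the 22 had an unadjusted p under 0.05. Casp6 lost its call without null casein pools 2 and 3, any wild type high fat pool or null high fat pools 2 and 3, each left out singly (0.0529 to 0.0776).

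Mc2r, the receptor for corticotropin, fell by 1.12 (adjusted p = 0.0326) and Ret, the receptor tyrosine kinase for ligands of the GDNF family, by 1.04 (adjusted p = 0.0130). The probe sets of Ret differed by -1.73, free of overlap, and by -0.35, with overlap. Gys2, a glycogen synthase, fell by 0.94 ± 0.13 and Ppp1r3d, a subunit that brings protein phosphatase 1 to glycogen, by 0.87 ± 0.10, with -0.87 on each diet. Nid2, a basement membrane protein, fell by 0.96 ± 0.14, with -0.96 on casein and -0.95 on high fat feed. The aggrecan-cleaving protease Adamts5 fell by 0.84 ± 0.08 (adjusted p = 0.00331), with null pools between -0.36 and -0.19 and wild type pools between 0.19 and 0.82.

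Prxl2b, a prostaglandin F synthase, fell by 0.87 ± 0.10 (adjusted p = 0.00535). Its 6 null pools lay within -0.41 and -0.29 and its wild type pools between 0.29 and 0.96, so the groups were far apart for this enzyme as they were for the receptor Ptgfr, which rose. Snx7, a sorting nexin of endosomes, fell by 0.77 ± 0.07 (adjusted p = 0.00331), the transcription factor Dmrt2 by 1.0 ± 0.10 (adjusted p = 0.00331) and Tmem45b by 1.0 ± 0.11 (adjusted p = 0.00508). The C-type lectin Cd209d fell by 0.96 (adjusted p = 0.0273) and Plppr4, of the lipid phosphatase-related family, by 0.94 (adjusted p = 0.0226).

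The calls of 3 falls turned on single pools. Mc2r, whose highest null pool and lowest wild type pool both round to 0.00, kept its call only without wild type casein pools 1 and 3, null casein pool 1 or null high fat pool 1, each left out singly (otherwise 0.0528 to 0.0844). Cd209d kept its call without those 4 or wild type high fat pool 1 (otherwise 0.0569 to 0.0750). After a further quantile normalization the adjusted p of Cd209d was 0.0511. Plppr4 lost its call without wild type casein pool 2, null casein pool 2, or null high fat pool 2 or 3 (0.0549 to 0.0677).

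Some genes whose expression is known to follow the expansion of fat fell, Lep itself among them. Of 16 measured, 6 fell, Lep included, and none rose (median -0.35), where 3.42% of all genes were called lower. Free of overlap and lower were 4 of the 16, again with Lep included, where the share over all genes was 1.8%. Mest, an imprinted gene of the alpha/beta hydrolase family that marks adipocyte enlargement, fell by 1.97 ± 0.33 (3.91-fold lower, adjusted p = 0.0150), with -1.17 on casein and -2.76 on high fat feed. Its wild type pools ran from 0.04 to 2.90 and its null pools from -1.47 to -0.04. Npr3, a receptor that clears natriuretic peptides, fell by 1.80 ± 0.25 and Fgf13, an intracellular member of the fibroblast growth factor family, by 1.02 ± 0.16. These 3 were free of overlap but too unequal on the diets to be alike, Npr3 only just, with a ratio of 0.5. Mest lost its call without null casein pool 2 (0.0504). After a further quantile normalization Mest differed by -3.10 and Npr3 by -2.76.

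Of 22 measured genes of mature adipocytes 7 fell and none rose, with a median of -0.34; 3.42% of all genes were called lower. The 2 without overlap, where 1.8% of all genes were lower without overlap, were Lep and Cebpa. Lep is thus counted in this list and in the expansion list. Cebpa, a transcription factor of adipocyte identity, differed by -0.37 (adjusted p = 0.0449). Pparg, the master regulator of fat cell formation, fell by 0.52 (adjusted p = 0.0256), Dgat2, which completes triglyceride synthesis, by 0.52 (0.0287) and Lpin1, a phosphatidate phosphatase, by 0.32 (0.0292). Adipoq, which encodes adiponectin, differed by -0.08 (adjusted p = 0.730). The casein median of the list was -0.14 and the high fat median -0.38.

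The adipocyte calls were sensitive to which pools entered the fit. The number of adipocyte genes called lower was 1 without wild type casein pool 2, null casein pool 2, wild type high fat pool 1, or null high fat pool 2 or 3, was 2 or 3 without null casein pool 3 or the remaining wild type pools other than casein pool 1, and was 7 or 8 without wild type casein pool 1, null casein pool 1 or null high fat pool 1. The list's median stayed between -0.38 and -0.28 in those 12 fits. Adjusted p-values where calls ended were 0.0530 to 0.0722 for Pparg, 0.0527 to 0.0712 for Dgat2, 0.0518 to 0.0746 for Lpin1 and 0.0576 to 0.1 for Cebpa, which kept its call only without wild type casein pool 1 or null high fat pool 1. With the tissue covariates the adipocyte median was -0.02 and no adipocyte gene was called, whereas the median of the expansion list was -0.26, also with none called. Of the 6 expansion genes, 3 to 6 were called without any 1 pool, 3 of them without null casein pool 2.

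No macrophage or progenitor gene passed the threshold, where 7.52% of all genes did. Of 28 measured macrophage genes limma called 0, with 6 at an unadjusted p under 0.05, and their median was 0.01 on casein and -0.30 on high fat feed; the smallest p was that of the mannose receptor Mrc1 (-0.70, adjusted p = 0.0602), which passed without null casein pool 1 or null high fat pool 1. Of 21 genes of progenitors and fibroblasts and 19 of neutrophils, mast cells and eosinophils limma called none, with 8 and 6 at an unadjusted p under 0.05; over all genes that share was 25.6%. Of 25 lymphocyte genes limma called 1, near the share of all genes called lower (3.42%). None of the 25 differences was above 0 (median -0.32), against 42.9% of all genes, and 2 had an unadjusted p under 0.05. The called gene, Ighm, the heavy chain of IgM made by B cells, fell by 0.43 ± 0.06 (adjusted p = 0.0103) with no overlap. The wild type pools of Ighm lay between 0.12 and 0.47 and its null pools between -0.25 and 0.03. Its 11 probe sets were unequal: the difference was -2.2 for one and -2.11 for another, both free of overlap. The others differed by -0.21 to 0.03, with overlap. The call of Ighm held without any 1 pool. In wild type casein pool 3, which had a lymphocyte list median of 1.31, its averaged value was 0.33. The responsive probe sets lay at 1.75 and 1.83 there, where the highest wild type values were 1.78 and 1.88. The endothelial receptor Kdr fell by 0.30 (adjusted p = 0.0422), the single call among 21 endothelial genes, where 3.42% of all genes were called lower. The median of the 21 was -0.26, with 0.01 on casein and -0.47 for high fat, and 13 had an unadjusted p under 0.05. The call of Kdr held only without wild type casein pool 1 or null high fat pool 1 (otherwise 0.0564 to 0.0902).

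Some genes induced by interferons rose. Of 30 measured members 7 rose and none fell, where 4.09% of all genes were called higher, and 3 were free of overlap and higher, where the share over all genes was 1.27%. The median was 0.20, with 0.22 for casein and 0.29 for high fat, and 26 of the 30 differences were above 0, against 42.9% of all genes. The list's median ran from -0.16 to -0.01 in the wild type pools and from 0.01 to 0.28 in the null pools, so the groups did not overlap, and wild type casein pool 1, at -0.09, lay with its own genotype. Igtp, a guanosine triphosphatase of the immunity-related family that protects cells from intracellular parasites, rose by 0.52 ± 0.08 (adjusted p = 0.0102). It lay at -0.25, -0.30 and -0.09 in the casein pools of wild type mice, at -0.18, -0.41 and -0.17 in wild type high fat pools, at 0.30, 0.40 and 0.33 in null casein pools and at 0.17, 0.09 and 0.46 in null high fat pools. It was called without any 1 pool.

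Its relative Irgm1 rose by 0.25 ± 0.06 (adjusted p = 0.0457) and Usp18, which removes the ubiquitin-like ISG15 and dampens the interferon receptor, by 0.74 ± 0.17 (adjusted p = 0.0305), both without overlap. The oligoadenylate synthetase-like Oasl2 rose by 0.85 ± 0.19 (adjusted p = 0.0288), but wild type casein pool 1 at 0.03 overlapped the lowest null pool at -0.03. Irgm1 kept its call only without wild type casein pool 1 or null high fat pool 1, and Oasl2 only without those or null casein pool 1; Usp18 lost it without wild type casein pools 2 and 3, null casein pools 2 and 3, wild type high fat pools 1 and 3 or null high fat pool 2, each singly. The adjusted p-values of the 3 genes then lay between 0.0527 and 0.106. The number of interferon genes called without 1 pool was 6 to 9 without wild type casein pool 1, null casein pool 1 or null high fat pool 1, and 1 or 2 without any other. The list's median was 0.16 to 0.23 in all 12 fits and 0.13 with the tissue covariates, with none called.

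The promoters of Igtp and Irgm1 show the sequence through which interferon factors act, and that of Ncf1 is shown beside them because it holds the same letters. The interferon-stimulated response element was searched as GAAA, any 2 bases and GAAA on both strands in the RefSeq windows of 250 bases before to 50 bases after each gene's start (GRCm38.p6), which were found for 14452 of the measured genes. The 250 bases before the start are given 5′ to 3′ on the strand of the gene, with matches in capitals. Ncf1 lies at chr5:134229626-134229875 on the minus strand, Igtp at chr11:58199306-58199555 on the plus strand and Irgm1 at chr11:48871421-48871670 on the minus strand, where 2 matches overlap.
Ncf1: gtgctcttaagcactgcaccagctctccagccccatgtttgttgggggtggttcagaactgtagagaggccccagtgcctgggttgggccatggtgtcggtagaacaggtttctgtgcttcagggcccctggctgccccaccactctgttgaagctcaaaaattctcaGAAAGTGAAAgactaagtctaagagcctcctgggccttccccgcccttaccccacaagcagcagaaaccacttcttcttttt
Igtp: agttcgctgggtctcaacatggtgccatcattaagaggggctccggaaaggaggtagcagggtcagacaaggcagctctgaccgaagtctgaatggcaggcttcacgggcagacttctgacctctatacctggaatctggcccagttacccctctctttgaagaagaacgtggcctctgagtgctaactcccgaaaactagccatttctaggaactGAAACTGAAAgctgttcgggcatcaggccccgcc
Irgm1: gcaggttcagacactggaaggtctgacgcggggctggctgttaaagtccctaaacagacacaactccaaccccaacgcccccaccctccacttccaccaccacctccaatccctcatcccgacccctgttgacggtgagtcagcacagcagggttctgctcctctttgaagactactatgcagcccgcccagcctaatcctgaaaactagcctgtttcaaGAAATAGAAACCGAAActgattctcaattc

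A match was present in 3.02% of the 14452 windows and in 15 of the 24 windows found for the interferon list (62.5%). It was present in 4 of the 6 windows of called list members (66.7%), those of Igtp, Irgm1, Irgm2 and Bst2, and not in those of Ifit2 and Oasl2. Among the genes alike on the diets it stood in 9 of 149 windows of rises (6.04%) and in 5 of 208 windows of falls (2.40%). The share with a TATA box, searched as TATAAA on both strands, was 4.33% in the windows of falls, 7.38% in those of rises and 9.86% in all windows, and the median GC content was 62.3%, 61.7% and 58.7%. A match says that the letters are present, not that a factor binds.

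Among genes of cell division 15 of 30 measured rose and none fell (median 0.49), where 4.09% of all genes were called higher. Plk1 and Kif23 were free of overlap, where 1.27% of all genes were higher without overlap. Plk1, a kinase of mitotic entry, rose by 0.71 ± 0.14 (adjusted p = 0.0220) and Kif23, a motor of cytokinesis, by 0.26 ± 0.07 (adjusted p = 0.0457). Top2a, the topoisomerase that untangles chromosomes, rose by 0.51 ± 0.10 (adjusted p = 0.0209) and Cdc20, an activator of the anaphase-promoting complex, by 0.95 ± 0.19 (adjusted p = 0.0226). In both the highest wild type pool was wild type casein pool 1, at 0.05 and 0.10, while the other wild type pools of Cdc20 ran from -0.78 to -0.50. The probe sets of these genes were unequal: the difference was 1.28 for one of Top2a and 0.23 and 0.03 for the others, and 0.60 for one of Kif23 and 0.13 and 0.05 for the others, none of the single Kif23 probe sets being free of overlap.

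The same pools also differed in reproductive tract genes. Of the 25 measured genes of ovary, oviduct and uterus 10 rose and none fell (median 1.09), where 4.09% of all genes were called higher, and all 25 differences were above 0, but none was free of overlap. Inha rose by 5.27 ± 0.93 (adjusted p = 0.0169), the ovarian transcription factor Foxl2 by 1.07 ± 0.20 (0.0202), the oocyte gene Oosp1 by 1.47 ± 0.28 (0.0208) and the first enzyme of steroid synthesis, Cyp11a1, by 1.77 ± 0.34 (0.0215). The value of Cyp11a1 rests on 1 of its 3 probe sets, with 5.15 beside 0.17 and 0.00, and that of Foxl2 on 1 of its pair, with 2.07 beside 0.07. In the responsive probe set of Cyp11a1, wild type casein pools 1 and 3 lay at -0.06 and 0.03 and the other wild type pools at -6.80 to -6.15.

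Without wild type casein pool 1, 17 of the 25 reproductive tract genes and 19 of the 30 division genes were called, and 11 and 15 were free of overlap. A count of genes free of overlap cannot fall when a pool is left out. Without null casein pool 2 none of either list was called, and without null high fat pool 2 the counts were 1 and 0. Without null casein pool 3 both counts were 1, and without null high fat pool 3 they were 1 and 2. The counts were 4 to 6 for the reproductive tract and 1 to 5 for division without any other wild type pool, and 12 or 13 and 16 or 23 without null casein pool 1 or null high fat pool 1. With the tissue covariates, which include the reproductive tract median itself, the division list's median was 0.05 and none of its genes was called. Named calls that ended without a single pool were those of Inha (null casein pool 2, 0.0520), of Foxl2, Oosp1, Cyp11a1 and Top2a (null casein pool 2 or 3, or null high fat pool 2 or 3, 0.0502 to 0.0618), of Plk1 (wild type casein pool 2, null casein pool 2, null high fat pool 2 or 3, 0.05 to 0.0594) and of Cdc20 (wild type casein pool 2, null casein pools 2 and 3, null high fat pool 2, 0.0576 to 0.0677). Kif23 kept its call only without wild type casein pool 1, null casein pool 1 or null high fat pool 1 (otherwise 0.0553 to 0.108).

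Markers of neighbouring linings leaned the same way. All 15 mesothelial genes had differences above 0 (median 0.62), and limma called Wt1, a transcription factor of mesothelium and of ovarian somatic cells (1.88, adjusted p = 0.0259), and Clu, a secreted chaperone (1.35, adjusted p = 0.0432). Of 22 genes of motile cilia 21 were above 0 (median 0.25) and Rsph1 and Ak7 were called. Of 26 epithelial genes 21 were above 0 (median 0.78) and Cldn4 was called. Over all genes 42.9% were above 0 and 4.09% were called higher, so the single epithelial call was near the share over all genes. Of the 22 muscle, 18 liver and 12 kidney genes limma called none, with 0, 0 and 1 at an unadjusted p under 0.05, against 25.6% of all genes. Each of these calls was lost without several single pools: Wt1 was called in 5 of the 12 fits without 1 pool, Clu in 4, and Rsph1 and Ak7 in 3 each, with adjusted p-values up to 0.0722, 0.105, 0.103 and 0.108. The fits that kept Rsph1 and Ak7 were those without wild type casein pool 1, null casein pool 1 or null high fat pool 1; Wt1 was kept in these and without wild type casein pool 3 or wild type high fat pool 1, and Clu without any wild type casein pool or null high fat pool 1.

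Of 27 measured antioxidant genes the metallothioneins Mt1 and Mt2, which bind metals and scavenge radicals, rose, and the superoxide dismutases Sod2 of mitochondria and Sod3 of the extracellular space fell, with a list median of 0.02; over all genes 4.09% were called higher and 3.42% lower. Mt1 rose by 0.50 ± 0.09 (adjusted p = 0.0169) with no overlap, from wild type pools between -0.55 and -0.09 to null pools between 0.04 and 0.38. Sod2 fell by 0.39 ± 0.08 (adjusted p = 0.0287), also with no overlap, from wild type pools between -0.01 and 0.47 to null pools between -0.33 and -0.07. Mt2 rose by 1.26 ± 0.32 (adjusted p = 0.0410) and Sod3 fell by 0.80 ± 0.19 (adjusted p = 0.0383), with overlap.

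The difference of Mt1 was 0.81 for one probe set and 0.19, with overlap, for the other (adjusted p = 0.257). The 4 probe sets of Sod2 differed by -0.67 for one, free of overlap, and by -0.42 to -0.17 for the others, with overlap. Mt1 lost its call without null casein pool 2 (0.0504), and Sod2 without null casein pool 2 or 3, wild type high fat pool 1 or 2, or null high fat pool 2 or 3 (0.0588 to 0.0730). Mt2 kept its call only without wild type casein pool 1, wild type high fat pool 3 or null high fat pool 1, and Sod3 only without wild type casein pool 1, null casein pool 1, wild type high fat pool 1 or null high fat pool 1 (otherwise 0.0592 to 0.101).

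Folding enzymes of the endoplasmic reticulum rose in a few members. Of 23 genes of heat shock and the unfolded protein response 4 rose and none fell (median 0.16), where 4.09% of all genes were called higher, and the list medians overlapped narrowly, at -0.17 to 0.02 in wild type and 0.00 to 0.14 in null pools. Creld2, a disulfide isomerase induced by stress of the reticulum, rose by 0.65 ± 0.15 (adjusted p = 0.0310) and Pdia4, another isomerase, by 0.26 ± 0.07 (0.0467), both without overlap. The calcium-binding chaperone Calr rose by 0.55 ± 0.12 (0.0259) and the co-chaperone Dnajb9 by 0.33 ± 0.08 (0.0403), with overlap. The count was 0 without wild type casein pool 2, null casein pool 2 or 3, wild type high fat pool 3 or null high fat pool 2, was 1 without wild type casein pool 3, wild type high fat pool 1 or 2 or null high fat pool 3, and was 4, 5 and 10 without null casein pool 1, null high fat pool 1 and wild type casein pool 1. Where they ended, the calls of Creld2, Pdia4, Calr and Dnajb9 had adjusted p-values of 0.0512 to 0.11. The probe sets of Pdia4 differed by 0.58 and -0.07, neither free of overlap.

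In insulin signalling 3 of 22 genes rose and 1 fell, with a median of 0.04, where 4.09% of all genes were called higher and 3.42% lower. Beside Ide these were Grb14, an adaptor that inhibits the insulin receptor (1.12, adjusted p = 0.0184), Igf1r, the receptor for insulin-like growth factor (0.64, 0.0220), and Pik3cb, a catalytic subunit of phosphoinositide 3-kinase (-0.55, 0.0358). Only Ide was free of overlap, and in Grb14 wild type casein pool 1 lay at 0.37, within the null range of -0.10 to 0.78. Of the 5 probe sets of Igf1r, 4 differed by 0.71 to 0.94 and the fifth by -0.12. Grb14 lost its call without null casein pool 2 or null high fat pool 2 (0.0554 and 0.0524), Igf1r without null casein pool 2 or 3, wild type high fat pool 3 or null high fat pool 2 (0.05 to 0.0639), and Pik3cb kept it only without wild type casein pool 1 or 3, null casein pool 1 or null high fat pool 1 (otherwise 0.0612 to 0.0842).

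Of 17 clock genes 2 rose, where 4.09% of all genes were called higher. Npas2, a partner of BMAL1, rose by 0.42 ± 0.08 (adjusted p = 0.0202) with no overlap, from wild type pools between -0.40 and -0.12 to null pools between 0.01 and 0.46, and the repressor Cry1 rose by 0.35 ± 0.07 (adjusted p = 0.0199) with overlap. The difference of Npas2 was 0.80 for one probe set and 0.04 for the other (adjusted p = 0.812). The list's median was -0.11. Npas2 lost its call without wild type casein pool 2 or null casein pool 2 or null high fat pool 2 (0.0501 to 0.0594), and Cry1 without null casein pool 2 (0.0594) or null high fat pool 2 (0.0510).

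The remaining lists held few calls, where 4.09% of all genes were called higher and 3.42% lower. Of 29 genes of oxidative phosphorylation limma called none, with 11 at an unadjusted p under 0.05 (25.6% over all genes) and a median of -0.18. Of 19 genes of lipogenesis the 2 called were Dgat2 and Lpin1, both lower, with a median of -0.08. Otop1, a proton channel of brown fat, fell by 1.86 (adjusted p = 0.0424), the single call among 15 brown and beige genes. Of 13 adrenal genes Hsd3b1, an enzyme of steroid synthesis that the ovary also expresses, rose by 5.38 (adjusted p = 0.0384), or by 3.52 after a further quantile normalization, with wild type casein pools 1 and 3 high as given above, and Mc2r fell. Of 14 pancreatic genes Cela1, an elastase, fell by 0.71 (adjusted p = 0.0288), and of 8 erythroid genes Slc4a1, the anion exchanger of red cells, fell by 0.60 (adjusted p = 0.0288). The 3 probe sets of Slc4a1 differed by -0.99, -0.74 and -0.08. Otop1 kept its call only without wild type casein pool 1, null casein pool 1 or wild type high fat pool 1, and Hsd3b1 only without any wild type casein pool or null high fat pool 1. Cela1 lost its call without wild type casein pools 2 and 3, null casein pool 2, wild type high fat pools 1 and 3 or null high fat pool 2, and Slc4a1 without wild type casein pools 2 and 3, null casein pool 2, wild type high fat pools 1 and 2 or null high fat pools 2 and 3, each singly; the adjusted p-values of the 4 genes then lay between 0.0528 and 0.103.

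The call of most genes thus depended on which pools were in the fit, and a smaller set kept it without any 1 pool. These fits share the contrast and most pools with the main fit, so they are no separate evidence. Without the 3 pools that stand apart 466 of the 1368 genes stayed called, and with the tissue covariates 0. Leaving out 1 pool at a time, limma called from 157 genes, without null casein pool 2, to 2339, without wild type casein pool 1, and 144 genes were called in all 12 of these fits. Of the 144, 60 rose and 84 fell, 119 were free of overlap and 92 were alike on the diets, 38 higher and 54 lower. These include Ncf1, Fgfbp3, Ide, Mgst2, Hirip3, Igtp and Ptgfr, and among the falls Lep, Nol3, Adamts5, Prxl2b, Snx7, Nid2 and Ighm.

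**Figure D5:**
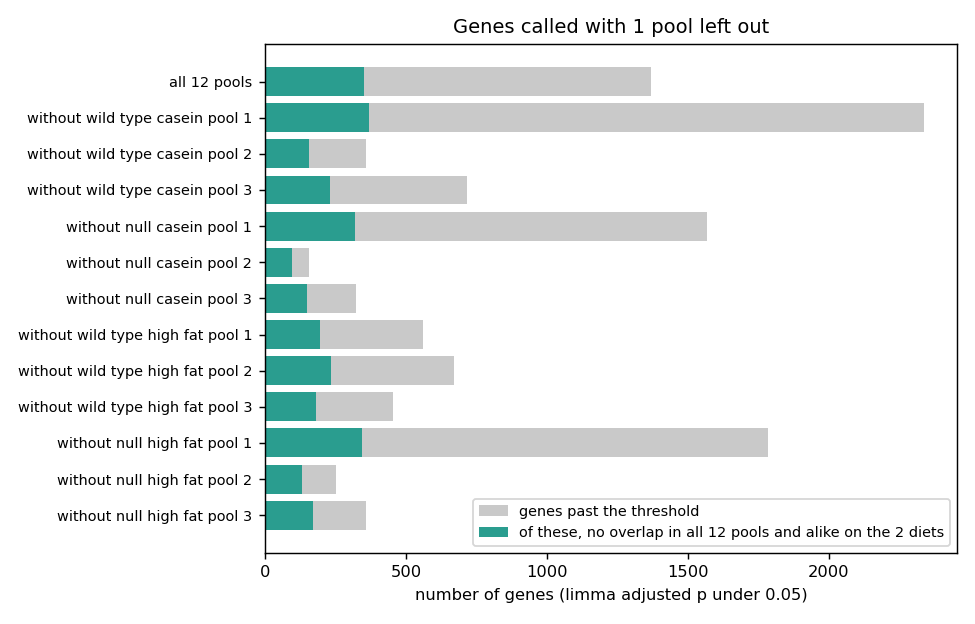
Number of genes called by limma (x axis, grey bars) with all 12 pools and with each pool left out in turn (y axis); the green part of each bar counts called genes that are free of overlap in all 12 pools and alike on the diets. The grey bars run from 157 to 2339, and the green part from 98 to 370.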

How the data were processed

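RNA (8 µg per array) from pooled abdominal fat pads was hybridised to 1 Affymetrix array per pool; the extraction text in the labels speaks of rats, although the organism is given as mouse. The authors' deposited values are log2 expression, taken as log2 because the submitters' processing notes name GCOS and RMA, whose output is log2; versions and log base are not given in the sources used here. Each of 45101 probe sets has a median of 0 over the 12 arrays (tolerance 1e-06), so only differences can be read.

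Of the probe sets, 34958 have 1 gene, 932 several and 9211 none in the platform annotation; 34754 were named through RefSeq (GRCm38.p6). Probe sets of a gene were averaged (18195 genes, 9011 with more than 1). limma 3.58.1 in R 4.3.3 fitted the 4 group means (8 residual degrees of freedom), and the contrast averaged the null minus wild type difference over the diets, with Benjamini-Hochberg adjustment and a threshold of 0.05. The script was tested on simulated data. No depth exists for arrays; the 12 arrays limit the precision.

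The members and the 30 gene lists were chosen with earlier results of these data known. Named genes were, among genes free of overlap and alike on the diets, the 12 largest rises and falls and the 4 smallest p each way, without clone and predicted names, plus the oxidase genes and up to 4 members of each list (called first, then free of overlap, then smallest p). Other genes named, Adipoq, Prss35 and those around Ncf1 and Ide among them, were chosen after their values were seen. Same-numbered pools mostly did not deviate together, and the numbers were not used as pairs. Their 18 correlations ran from -0.61 to 0.59, 3 of them over 0.1. These were 0.59 for the null pools 3, 0.55 for the null pools 1 and 0.30 for the wild type pools 3, each between the diets. A shared batch was not tested. Alternatives were another probe set rule, normalization, filter, weights, covariates, a replicate block, other designs and leaving out pools; the counts over the fits without 1 pool and the list medians without wild type casein pool 1 were chosen after seeing the data.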

Additional observations from a re-analysis of the deposited data

Results flagged for a closer look

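In 25 of 236 sets of 6 pools of 1 genotype, the highest or lowest pool lay far from the other 5; chance alone gives about 1 in 20. Wild type casein pool 1 was that pool in 14 sets and was the highest wild type pool in each. Its values were -0.03 for Tmem86a, -0.22 for Pgbd5, -0.01 for Cst12, -0.20 for Smpdl3b and 0.37 for Grb14. They were 0.73 for Inha, 0.16 for Foxl2, 0.37 for Oosp1, 0.60 for Rsph1, 0.05 for Top2a and 0.10 for Cdc20. The list medians of this pool were 0.37 for ovary, oviduct and uterus, 0.18 for motile cilia and 1.18 for mammary and other epithelium.

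Wild type casein pool 3 was highest for Rac2, at 0.80 against at most 0.18 in the other wild type pools, and for the medians of the antioxidant (0.07), lymphocyte (1.31) and adrenal gland (1.37) lists. Lep reached 1.71 in wild type high fat pool 3, where the other wild type pools ran from 0.13 to 0.71. Usp18 was lowest in wild type high fat pool 1, at -0.61, with the others between -0.19 and -0.09.

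Among the null pools, Fgfbp3 was 0.84 in null high fat pool 3 and at most 0.47 in the others, and the median of the interferon-stimulated list was 0.28 there and at most 0.11 elsewhere. Rac1 was 0.03 in null casein pool 1, with the others at -0.07 to -0.05. In null casein pool 3, Pdia4 was 0.43 and the median of the kidney list 0.73, with the others at most 0.09 and 0.13.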

How the results depend on the processing

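The count of 1368 called among 18195 genes was 548 without the 3 pools that stand apart, 4009 with array weights and 6 with the tissue list medians as covariates. When each probe set was tested on its own, 2327 of 34958 probe sets were called, a count over more features. Leaving out each pool in turn gave 157 to 2339. The 559 genes free of overlap became 1332 without the 3 pools, 191 when the smaller diet difference had to be at least 0.75 of the larger, and 611 to 1593 without 1 pool. Leaving out pools can only keep or raise this count, and the added ratio can only keep or lower it, so these directions were fixed in advance. Of the 34958 single probe sets, 978 were free of overlap. The interaction was called for 0 to 10 genes without 1 pool. For Ncf1 the difference was -0.51 (adjusted p = 0.446) with the covariates and -0.04 (0.764) for the least responsive of its 3 probe sets, and -0.80 to -0.60 without 1 pool. The causes were not tested.

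With the replicate block 829 genes were called, 750 of them shared with the 1368, and Ncf1 stayed at -0.71 (adjusted p = 0.0237); among the 87 genes followed, 15 lost their call under the block. Whether same-numbered pools shared a batch is not given in the labels. With the probe set of highest mean the share of called genes that rose was 49.5%, against 54.5%, and without null casein pool 2 it was 42.7%.

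Because every probe set is centred, the probe set of highest mean need not be the most abundant one. With it 14 of the 87 genes kept their direction but lost their call, among them Foxl2 (0.07), Top2a (0.03), Kif23 (0.13), Npas2 (0.04) and Mt1 (0.19). After a further quantile normalization 76 called genes rose and 38 fell more than 2-fold, against 140 and 19. Direction turned with the probe set of highest mean for Rac1 (0.04) and for Cyp11a1 (0.00), Pdia4 (-0.07) and Igf1r (-0.12), which also lost their calls. It turned for Nox4 (-0.06), Noxo1 (-0.02) and Cybc1 (0.01) with array weights, and for Nox4 without null casein pool 3 (-0.09) or null high fat pool 1 (-0.01), its values without 1 pool running from -0.09 to 0.14. With the covariates it turned for Cyba (-0.31), Noxo1 (-0.15), Duox1 (0.20), Cybc1 (0.05) and Rsph1 (-0.06), and none of the 87 genes was called.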

Other observations

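Genes free of overlap sometimes lay side by side. Among 18131 genes with a place on a chromosome, 19 neighbouring pairs were both free of overlap in the same direction. Lep (-1.26) was next to Rbm28 (-0.87), Mest (-1.97) next to Copg2 (-0.27), Slc5a3 (-0.83) next to Mrps6 (-0.59) and Ppp1r3d (-0.87) next to Fam217b (-0.57). The cell cycle inhibitor Cdkn1b (1.0) lay next to the noncoding Lockd (0.48), and Cebpa (-0.37) next to its relative Cebpg (-0.35). Where transcripts of neighbours overlap, their probe sets cannot be told apart. By chromosome, the share of measured genes free of overlap ran from 1.95% on chromosome 5, which holds Ncf1, to 4.51% on chromosome 10. Of 10143 probe sets without a single gene, 170 were free of overlap (1.68%), 89 higher and 81 lower in null pools.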
